A study of Mus musculus with 5 samples.

Results

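The peak list of the catalytic mutant RNF12 H569A,C572A comprised 98124 peaks, of which the 96846 on chromosomes 1 to 19 and X were taken here, out of 291776 peaks in the 3 lists of the series. All rows of the list on these chromosomes were kept and ranked within the list by their fold over control, and no other list was compared. The mutant was expressed with a FLAG-V5 tag from a pCAG promoter in female Rlim+/- mESCs of the hybrid 129/Sv-Cast/Ei background, in a stable line obtained by electroporation and puromycin selection, so that an untagged Rlim allele was still present. The cells were treated with 15 µM MG132 for 3 h and cross-linked with 2 mM DSG and 1% formaldehyde, and the protein was recovered on V5 agarose. The control carried for RNF12 in the series came from WT cells of the same strain without the transgene, so the tag, the transgene and the Rlim genotype all differed between ChIP and control. That control is titled input, while the paper lists control WT ESCs beside the tagged lines in its ChIP methods. Whether it was immunoprecipitated is therefore not clear, and the files do not state which control library stands behind the list. There was 1 library and no replicate. The values are therefore a description of 1 library, the 95% Wilson intervals cover the counting of peaks only, and no test between conditions was made.

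RNF12, also termed RLIM, is an X-linked RING E3 ubiquitin ligase that ubiquitylates the transcription factor REX1, encoded by Zfp42, and thereby promotes its degradation by the proteasome. In female embryonic stem cells this relieves repression of Xist, the noncoding RNA that silences one X chromosome. The paired substitutions remove zinc-binding residues of the RING domain, so that the protein no longer supports ubiquitin transfer, and MG132 blocks the proteasome.

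The summit sequences on which the description turns are given first, each as the summit base and 50 bases to either side on the plus strand of GRCm38 (mm10), with the central 32 bases in capitals. Occurrences of those 32 bases were counted in either orientation on the autosomes and both sex chromosomes, and a summit whose 32 bases occurred at a single place is called single-copy below and any other is called repeated. The strongest peak of the list lay in the histone H4 gene Hist1h4b, and its 32 bases were found at 11 places. Repeat groups 1, 3 and 5 are groups of summits that share a word, described below. The peak at Flg is the broadest of the list, those of the 5S rRNA array and of the array upstream of Atg7 stand for tandem arrays, and the last 3 are single-copy.
Hist1h4b, chr13:23757192-23757292: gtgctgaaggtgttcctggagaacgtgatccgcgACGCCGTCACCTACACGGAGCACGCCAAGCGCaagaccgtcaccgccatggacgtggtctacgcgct
repeat group 3, near Gm14713, chrX:76707434-76707534: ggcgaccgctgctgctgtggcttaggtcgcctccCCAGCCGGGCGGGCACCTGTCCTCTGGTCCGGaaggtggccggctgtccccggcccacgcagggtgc
repeat group 5, in an intron of Atp13a4, chr16:29443165-29443265: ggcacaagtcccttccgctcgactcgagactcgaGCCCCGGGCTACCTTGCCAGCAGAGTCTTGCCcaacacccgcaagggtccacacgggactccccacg
repeat group 1, in an intron of Mfap3l, chr8:60646779-60646879: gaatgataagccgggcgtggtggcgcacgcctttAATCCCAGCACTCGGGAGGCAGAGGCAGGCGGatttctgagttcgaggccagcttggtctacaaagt
Flg, chr3:93282587-93282687: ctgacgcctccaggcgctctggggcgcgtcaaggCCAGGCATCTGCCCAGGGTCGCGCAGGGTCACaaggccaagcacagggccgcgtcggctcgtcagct
5S rRNA array, near n-R5s106, chr8:123549072-123549172: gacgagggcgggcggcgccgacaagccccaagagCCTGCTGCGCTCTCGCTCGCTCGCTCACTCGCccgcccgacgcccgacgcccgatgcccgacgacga
array upstream of Atg7, chr6:114602516-114602616: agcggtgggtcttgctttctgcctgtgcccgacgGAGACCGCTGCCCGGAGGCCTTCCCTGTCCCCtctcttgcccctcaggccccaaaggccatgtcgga
near C330004P14Rik, chr10:15899821-15899921: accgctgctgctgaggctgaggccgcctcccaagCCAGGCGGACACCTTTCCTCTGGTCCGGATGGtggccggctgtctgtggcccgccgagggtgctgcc
1600020E01Rik start, chr6:86526568-86526668: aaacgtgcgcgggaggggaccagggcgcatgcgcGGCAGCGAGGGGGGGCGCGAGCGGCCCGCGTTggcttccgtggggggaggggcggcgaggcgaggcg
coding exon of Nrtn, chr17:56751494-56751594: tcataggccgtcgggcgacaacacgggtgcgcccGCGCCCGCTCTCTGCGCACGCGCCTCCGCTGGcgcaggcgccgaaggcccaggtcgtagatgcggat

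Peaks were narrow and their enrichment spanned a wide range. The median peak was 148 bp wide, 90% of peaks were at most 537 bp wide, and the fold over control had a median of 6.82, with 80% of peaks between 4.38 and 15.5. The highest fold was 68.1 and the lowest 1.63. Together the peaks covered 23.96 Mb, or 0.936% of the called bases. Fold and width moved together across peaks (Spearman 0.66 over 96846 peaks of 1 library, a description, since both come from the same reads), and the sequence within 250 bp of the median summit held 55.5% G and C against 41.8% for these chromosomes as a whole. Values were discrete. Of all peaks, 96.3% shared both their fold and their −log10 q with at least 1 other peak, so ranks within a tie carry no order.

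Of the 96846 summits, 30.8% (interval 30.5% to 31.1%) lay within 1 kb of an annotated transcription start site (TSS), 37.5% were intergenic, 23.5% lay in introns, 6.16% in coding exons, 1.15% in UTR exons and 0.893% in other exons. Summits near a TSS were mostly single-copy, with a share of 86.2% (85.8% to 86.6%), whereas beyond 1 kb only 31.8% (31.5% to 32.2%) were. Over the whole list 48.6% of summits were single-copy, 51.7% lay on a soft-masked base, the mark that the genome sequence gives to interspersed and simple repeats, and 28.9% had a word found 100 times or more. In coding exons beyond 1 kb of a TSS, 94.0% of summits were single-copy. Near a TSS, 59.7% (59.1% to 60.2%) of summits lay downstream of it, and 81.5% of these TSSs belonged to protein-coding genes.

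Over all peaks, those of highest fold were not the most promoter-rich, whereas among single-copy summits they were. When the list was divided into deciles by fold, 34.1% (33.2% to 35.0%) of the highest decile, with folds from 15.5 to 68.1, lay within 1 kb of a TSS. Decile 2 reached 49.1% (48.1% to 50.1%), and the lowest decile had 21.7% (20.9% to 22.6%). This order depends on the ranking, since with deciles by −log10 q the highest held 20.0% and the lowest 26.2%. The highest decile was also the most repetitive, with 65.2% of its summits on soft-masked bases and only 32.5% single-copy. Among the single-copy summits of that decile, 88.8% lay within 1 kb of a TSS, against 84.9% among those of decile 2 and 36.5% among those of the lowest decile. A window of 250 bp to either side of a summit or TSS was called CpG-rich where it held at least 50% G and C and a ratio of observed to expected CpG of at least 0.6. By this rule 57.9% of the highest decile, 62.9% of decile 2 and 12.9% of the lowest were CpG-rich, and 29.8% of the list. The median width was 504 bp in the highest decile and 109 bp in the lowest.

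**Figure D1:**
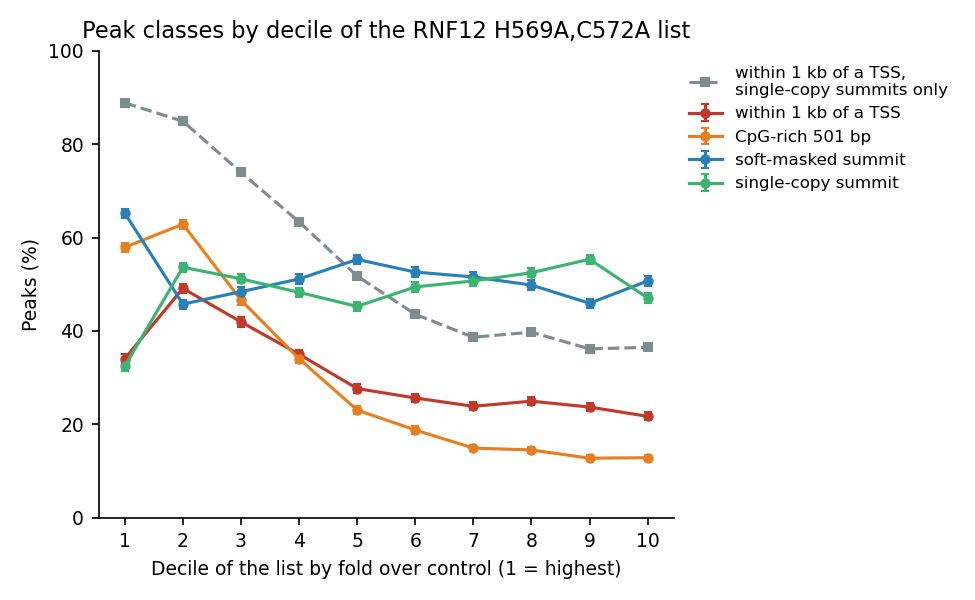
Share of peaks (%, vertical axis) in each decile of the list by fold over control (horizontal axis, 1 is the highest), with points for 5 classes and bars for 95% Wilson intervals where drawn. Single-copy summits within 1 kb of a TSS make up 88.8% of the single-copy summits of the highest decile and 36.5% of those of the lowest, while the share over all peaks is highest, at 49.1%, in decile 2.

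The very strongest peaks lay mainly at replication-dependent histone genes, which encode the core and linker histones made in S phase. Of the 12 peaks with the highest fold, 8 had a histone gene as the nearest protein-coding gene. Hist1h4b, an H4 gene, had the highest fold, 68.1, with its summit 229 bp downstream of the TSS on chromosome 13. A pair of peaks of the histone cluster, nearest to the miRNA annotations Gm44350 and Gm44454, had folds of 63.4 and 60.2 and lay 328 bp downstream of Hist1h2ac and 274 bp downstream of Hist1h2ak. Hist1h4a followed with 61.8, Hist1h3d with 59.9, Hist1h3c with 59.3, Hist1h4i with 55.0 and Hist1h4n with 50.5. All 8 summits lay downstream of the start of the histone gene. Their 32 bases were found 9 to 21 times, so the reads could have come from any of several near-identical histone genes and the gene itself is uncertain. The other 4 of the 12 were an intron peak of Mtcl1, which encodes a microtubule cross-linking factor, with a fold of 56.97, an intergenic peak near Gm14713 with 53.2, an intron peak of Tmprss11f, a membrane serine protease gene, with 52.6 and an intergenic peak near Gm7293 with 50.99. All 12 summits were repeated. Among the 100 strongest peaks, 16 were nearest to a histone gene and 64 had a word found 100 times or more.

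Over the list of 67 replication-dependent histone genes, 63 had a summit within 1 kb of a TSS. The median of their strongest promoter peaks was a fold of 33.0, against 11.6 over all protein-coding genes with such a summit. The H3 genes had a median of 41.4 over 12 of 12 genes, the H2B genes 36.6 over 17 of 18, the H2A genes 31.0 over 18 of 18 and the H4 genes 31.0 over 13 of 13. H2A and H2B genes lie head to head and share peaks, and the median offset of the summit from the TSS was −459 bp for H2B and 257.5 bp for H2A genes. Of the linker histone genes, 3 of 6 had a summit, beside 67.7% of all protein-coding genes, with folds between 6.20 and 15.6 and words found at a median of 3 places, against 11 to 14.5 in the other classes. The genes Hist1h1b, Hist1h1d and Hist1h1t had none, nor did Hist1h2be. When only single-copy summits were counted, 12 of the 67 genes were left, so the values of the other members rest on sequence found at several places.

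Tandem arrays of another multicopy gene also ranked high. All 41 annotated 5S rRNA genes of the array at chr8:123538786-123622046 had a summit within 1 kb of the TSS, with best folds from 16.3 to 25.8 and a median of 20.2. The array held 60 peaks, none of them single-copy, with a median width of 1466 bp and a median GC content of 68.7%. Of the 304 other rRNA genes in the annotation, 26 (8.55%, 5.90% to 12.2%) had a promoter summit. The tRNA genes, transcribed like 5S rRNA by RNA polymerase III, had a lower share than the 5S array. Of 403 RefSeq tRNA genes, 66 (16.4%, 13.1% to 20.3%) had a summit within 100 bp, a distance at which all genes were not counted. Within 1 kb 180 (44.7%) had one, beside 38.3% of all annotated genes. The highest fold among the summits within 100 bp was 24.97. The 5S and tRNA genes were examined after their peaks had been seen.

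To describe the repeated summits, the most frequent 16-base word in their windows (50 bp to either side of the summit) was found, its peaks were set aside and the step was repeated until 6 groups were formed. The 6 groups held 17036 peaks, or 34.2% of the repeated summits. No repeat annotation was used, so the groups are known by their words. Group 3, whose word is CACCTGTCCTCTGGTC with capitals here marking the whole word, held 2212 peaks with a median fold of 20.0 and a median width of 418 bp, and 74.5% of them fell in the highest decile. Of the 100 strongest peaks of the list, 29 belonged to it, and it made up 17.0% of the highest decile. Group 5, whose sequence is shown above in an intron of Atp13a4, held 1826 peaks with a median fold of 13.4 and a median width of 514 bp, and 33.5% were in the highest decile. Both groups were mainly intergenic, at 72.6% and 72.4%, and 11.4% and 11.3% of them lay on X. In the other groups 2.49% to 7.42% did, and 5241 of the 96846 peaks of the list lay on X.

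Groups 1, 2, 4 and 6 had lower folds. Group 1 held 6612 peaks with a median fold of 6.24 and a median width of 97 bp, and 3 of these peaks were in the highest decile. Group 6 held 1707 peaks with a median fold of 6.07, and none was in the highest decile. The strongest windows of both groups matched on opposite strands at 84 of 99 bases, and both carry letters known from the B1 short interspersed element. Group 4 was a run of CA dinucleotides with 2052 peaks and a median fold of 5.82. Group 2 held 2627 peaks with a median fold of 6.44 and letters known from the long terminal repeat of the IAP retrotransposon.

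The groups also differed in how much of their sequence in the genome was under a peak. Of 3893 copies of the group 2 word on these chromosomes, 68.7% had a summit within 50 bp, and of 5121 copies of the group 3 word 46.0% did. The share was 25.5% of 7380 copies for group 5, 6.98% of 98093 for group 1, 5.67% of 103904 for group 6 and 0.773% for the CA run. Reads from such copies cannot be placed with certainty, and how the aligner spread them was not tested.

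**Figure D2:**
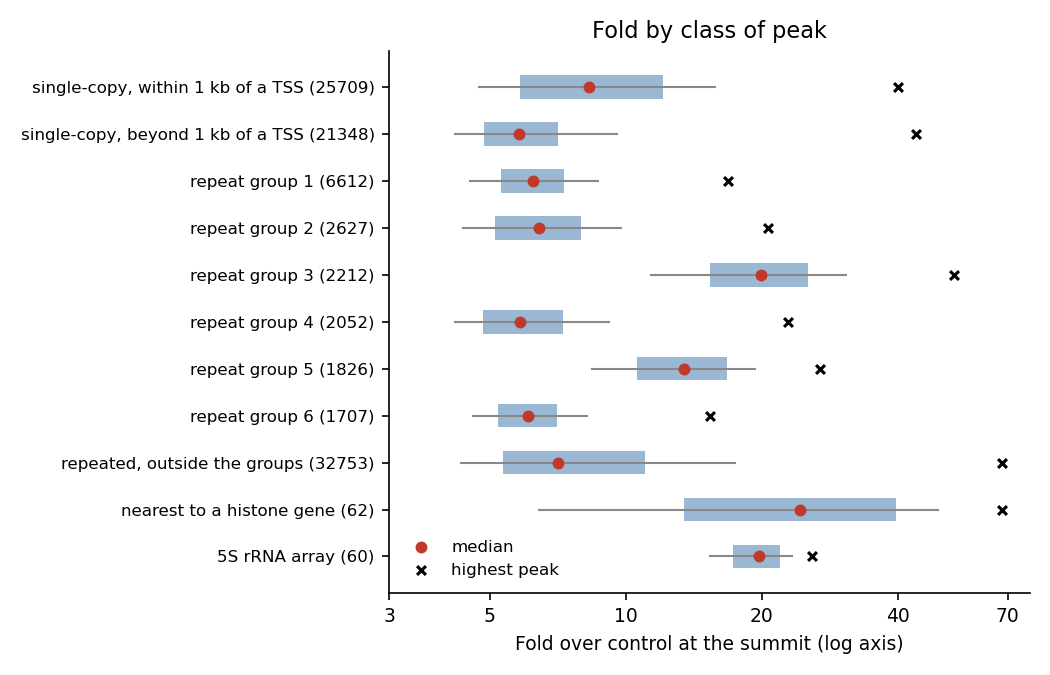
Fold over control at the summit (horizontal log axis) for 11 classes of peaks, with the number of peaks in brackets. Boxes span the middle 50% of peaks, grey lines the 10th to the 90th percentile, red points the medians and crosses the highest peak. Group 3, histone and 5S peaks have medians of 20.0, 24.3 and 19.8, above the 8.28 of single-copy peaks near a TSS. The histone class takes the nearest TSS of any gene type, so the peaks nearest to Gm44350 and Gm44454 are not in it.

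The strongest single-copy summits near a TSS were at Ptpa, a phosphatase activator gene (fold 40.1, 29 bp downstream of the TSS), Odc1, which encodes ornithine decarboxylase of polyamine synthesis (39.8, 93 bp downstream), and E2f6, a transcriptional repressor gene (39.4, offset −34 bp). They were followed by the antisense transcript 1600020E01Rik next to Pcbp1 (37.2), Cog6 and Ppp1r8 (36.1 each), Prrc1 (35.2) and Map4k5 (34.7). Odc1, E2f6 and Map4k5 lie within the first 75 Mb of chromosome 12, where the median fold of single-copy peaks at protein-coding TSSs was 11.6, against 8.40 on other autosomes. Whether the ChIP line and its control carried equal copies of this stretch was not tested. Single-copy peaks within 1 kb of a TSS had a median fold of 8.28 and a median width of 239 bp, and those farther away 5.81 and 122 bp. Of the 12 strongest single-copy peaks beyond 1 kb of a TSS, 11 had fully soft-masked windows. The highest, near C330004P14Rik with a fold of 43.8, matched the strongest window of group 3 at 83 of 97 bases, so a single-copy word can resemble a repeat group. The strongest single-copy peak in a coding exon beyond 1 kb was in Nrtn, the neurturin gene, with a fold of 24.7.

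Promoter summits were very frequent, and the share of protein-coding genes with one differed by the base composition of the start. Of 53843 annotated genes, 20612 (38.3%) had a summit within 1 kb of a TSS, and of 21755 protein-coding genes 14738 (67.7%) did. Of the 12389 protein-coding genes with a CpG-rich window at a TSS, 12210 (98.6%) had a summit, against 2528 of the 9366 others (27.0%). The median of the strongest promoter peak was 12.3 in the former and 7.19 in the latter. Restricted to single-copy summits, the shares were 96.5% and 21.96%. Among other gene types, 92.1% of 190 bidirectional promoter lncRNAs, 36.7% of 2958 antisense transcripts and 18.02% of 5305 lincRNAs had a promoter summit.

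A share of a gene list therefore has to be read against 67.7%, and against 98.6% where its members have CpG-rich starts. Of 21 gene lists, 17 lay above the share of all protein-coding genes, and for naive pluripotency (81.5%, 63.3% to 91.8%) the interval contained it. None of the 17 could be told to lie above the share of CpG-rich genes, since even full lists had lower bounds of at most 90.1%. Below it, the upper bounds were 96.7% for cytosolic and 97.2% for mitochondrial ribosomal protein genes and 97.3% for respiratory chain genes, among other lists. In the TGF-beta, Nodal and BMP list 22 of 29 genes had a CpG-rich start. All members had a promoter summit in 4 lists. These were the Polycomb complexes (28 of 28 genes, led by Aebp2 with 25.2, Cbx6 with 23.97, Jarid2 with 22.9 and Eed with 22.6), the heat shock and proteotoxic stress genes (27 of 27, led by Hsp90aa1 with 23.5, Hspa1a with 23.4 and Hsf2), the TGF-beta, Nodal and BMP genes (29 of 29, led by the signal transducers Smad4 with 21.1, Smad7 with 19.7, Smad5 with 18.8 and Smad1 with 18.2) and the tRNA synthetases (35 of 35, led by Gars with 21.9). For Hspa1a and the neighbouring Hspa1b (18.2), which are near-identical, the summit lay in a word found at 2 places and the peaks were 2264 and 2265 bp wide.

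In the lists of housekeeping machinery, a summit was present at 46 of 47 proteasome subunit genes, with Psma4 (22.7), Psma7 (20.8), Psmc4 (19.9) and Psmd2 (19.5) highest and Psmd10 without one. It was present at 65 of 67 translation factor genes, led by Eif2b1 with 30.0 and Eif4h with 24.3, and at 52 of 54 splicing genes, led by Prpf39 with 27.3 and Srsf2 with 23.5. Mitochondrial ribosomal protein genes (73 of 78, led by Mrpl15 with 30.3 and Mrpl39 with 28.2), respiratory chain genes (76 of 81, led by Ndufab1 with 26.3 and Ndufs6 with 25.8) and cytosolic ribosomal protein genes (78 of 84, led by Rpl10a with 21.2 and Rpl34 next) had between 92.9% and 93.8%. The word of the strongest Rpl10a summit was found at 3 places. Mrpl36 and Ndufs6 shared a peak of the same fold. Some CpG-rich housekeeping starts had no summit, among them Rpl10, Rpl36a, Rpl39, Mrpl11, Mrpl16, Mrpl24, Cox6b1 and Prpf31.

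Of 39 Hox genes, 37 had a promoter summit, led by Hoxd13 with 18.3, and Hoxb2 and Hoxc6 did not, and 32 of the 39 had a CpG-rich start. Of 20 neural genes, 19 had one, led by Syn1 (17.8), Unc5b (17.5) and Ntn1 (17.4), and the netrin receptor gene Dcc did not, and CpG-rich starts numbered 19 as well. Of 391 Zfp zinc-finger genes, 323 (82.6%, 78.5% to 86.0%) had one, led by Zfp281 with 30.1 and Zfp541 with 29.7, and 258 had a CpG-rich start.

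The other 4 lists lay below the share of protein-coding genes at a distance of 1 kb. Of 1092 olfactory receptor genes, none of which has a CpG-rich start by the rule used, 25 (2.29%, 1.56% to 3.36%) had a promoter summit, and 12 had a single-copy one. Of 56 clustered protocadherin genes 26 (46.4%) had one, a place below the protein-coding share that turned with the distance, since within 3 kb it was 92.9% against 72.3%, while single-copy summits alone gave 21.4%. The list was led by Pcdha7 with 18.5 and Pcdha12 with 13.7, whose words were found at 10 places. Every Pcdhb gene of the list was among the 30 without. Of 18 genes of the 2-cell stage and germline 10 had one (55.6%, 33.7% to 75.4%, which contains the protein-coding share), led by Stk31 (15.9), Ddx4 (15.8) and Dazl (15.5), while Dppa3, Tcstv1 and Tcstv3 had none. Of 18 fibroblast genes, 7 had one, led by Twist1 with 18.1, and Acta2, Col1a1 and Col3a1 had none.

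**Figure D3:**
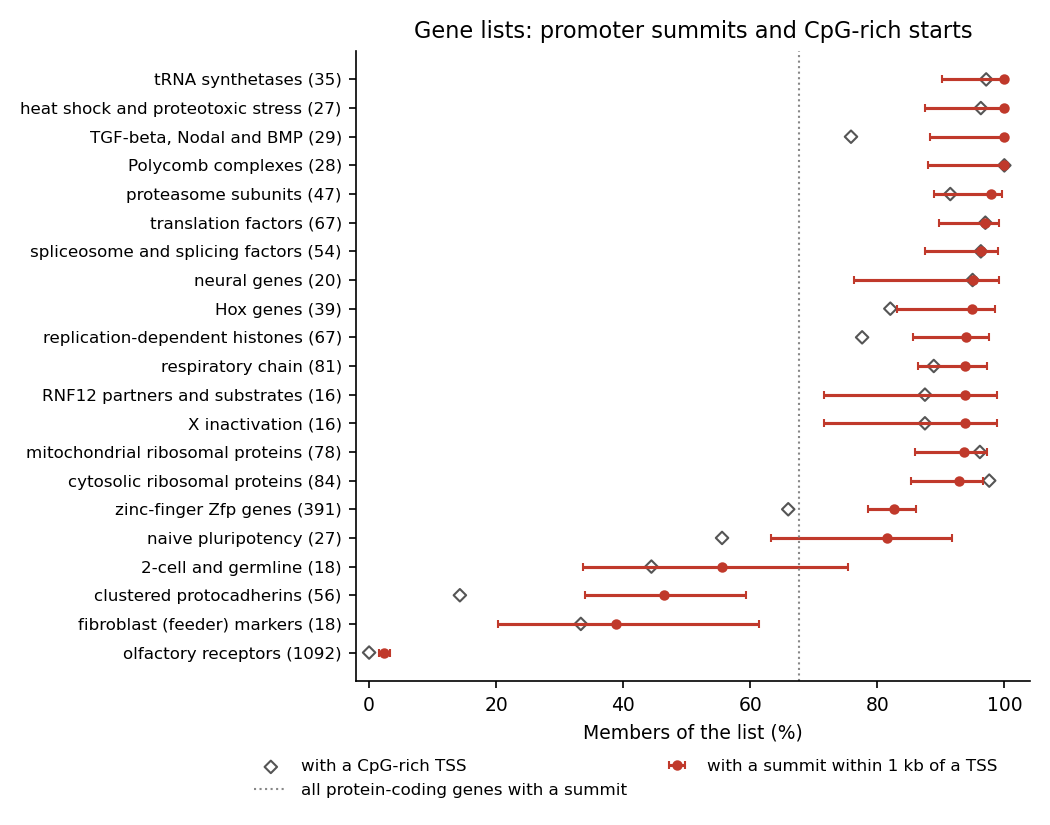
Members of 21 gene lists with a summit within 1 kb of a TSS (red points with 95% Wilson intervals) and with a CpG-rich TSS (open diamonds), in % of the list (horizontal axis), with list sizes in brackets and a dotted line for the 67.7% of all protein-coding genes. Olfactory receptor genes, at 2.29%, have no CpG-rich start, and 4 lists reach all of their members.

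Markers of the labelled cells gave 7 of 8 mESC genes with a promoter summit, of which Klf4 had the highest fold (26.4) and Pou5f1 the lowest (6.09), and 2 of 8 fibroblast feeder genes, Col1a2 (5.84) and Thy1 (7.30). Nanog had no promoter summit. CpG-rich starts were present at 4 of the 8 mESC genes and 1 of the 8 feeder genes, the share of all protein-coding genes with a summit was 67.7%, and the longer fibroblast list had 7 of 18. A peak is not a measure of expression, so the cell type could not be checked from these values. In the list of 27 naive pluripotency genes, 22 had one, with Fgf4 (15.6), Sox2 (15.5) and Il6st (15.0) after Klf4, and Dppa2, Dppa3 and Dppa5a were among the 5 without. CpG-rich starts were present at 15 of the 27.

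Rlim had 2 single-copy peaks at its start, with folds of 11.6 at 156 bp downstream and 4.57 at an offset of −124 bp, a repeated one of 6.33 at −7041 bp, and no peak in a coding exon. Zfp42, which encodes REX1, had 1 single-copy promoter peak with a fold of 9.96 at an offset of −123 bp. Another 9 peaks whose nearest TSS was Zfp42 lay at offsets from −6166 to −12667 bp, all with repeated words found 11 to 67 times and with folds from 5.94 to 11.6. Xist had no summit within 1 kb of a TSS. The only peak within its body or 5 kb around it lay in a noncoding exon, was single-copy and 126 bp wide and had a fold of 7.79. Its summit was at chrX:103482034, and the gene, on the minus strand, starts at 103483254. Within 3 kb of a TSS all 16 genes of the X inactivation list, Xist among them, had a summit. Tsix, the antisense repressor of Xist, had peaks with folds of 16.3 at 17 bp and 13.9 at 1110 bp downstream of one of its starts, the latter 937 bp wide and with a word found at 2 places, and a weaker one of 6.46 at another start.

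Of the 16 genes of X inactivation, 15 had a promoter summit and 14 a CpG-rich start. The highest folds were at Wtap (30.4), Hnrnpu (25.3), Hnrnpk (20.3) and Yy1 (17.4), and the noncoding activators Ftx and Jpx had 16.8 and 15.1. Of the 16 RNF12 partners and substrates, 15 had one, led by Hdac2 (20.6), Smad7 (19.7), Ldb1 (16.8) and Stub1 (15.97), and Ldb2 had none. CpG-rich starts were present at 14 of these 16 as well. Beside both lists, 67.7% of all protein-coding genes and 98.6% of those with a CpG-rich start had a promoter summit.

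The genes with most peaks were of 2 kinds, those beside repeated sequence and long genes with single-copy peaks. By nearest TSS, 33874 genes were nearest to at least 1 peak, 12767 of them to a single peak, and 964 to 10 or more. The last count was 549 at a −log10 q of at least 5, 2474 with protein-coding TSSs only and 261 over single-copy summits. The gene with most, Atg7, which encodes an activating enzyme of autophagy, had 115 peaks, and the histamine receptor gene Hrh1 had 66. Most of them belonged to an array between both genes at chr6:114489757-114639059, where 174 peaks stood within 149 kb and 173 were repeated, with a median fold of 6.75. The pseudogenes Gm20586 (103 peaks over 232 kb), Gm15068 (57 over 66.98 kb on X) and Gm5263 (30), and the Y RNA gene Rny3 (36 over 40.2 kb), also had few single-copy summits, 1 to 6 each. Flg2, a filaggrin family gene with internal repeats, had 45 peaks over 13.8 kb, 2 of them single-copy.

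In contrast, Bcor, the X-linked gene of a BCL6 corepressor in a Polycomb complex, had 41 peaks over 102.9 kb, all single-copy, 27 of them in introns, 10 within 1 kb of a TSS and with folds from 2.89 to 16.3. Tnrc18 had 39 peaks of which 30 were single-copy, Gse1, a gene of an HDAC complex, 38 and 37, and Plec, the plectin gene, 36 and 36. At Plec 17 peaks lay in coding exons beyond 1 kb of a TSS, against 1 at Bcor. The median GC content around the summits of these 4 genes was between 59.1% and 62.9%, and their median folds were between 5.82 and 6.71. Plec and Ptprs had most summits within 1 kb of a TSS, 15 each with 16 and 21 annotated TSSs, followed by Phldb1 with 14, Gnas and Adgrb2 with 13, Mdga1 and Bicra with 12 and Ptch1 with 11. The best of these ranged from 9.25 at Adgrb2 to 17.7 at Ptprs.

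**Figure D4:**
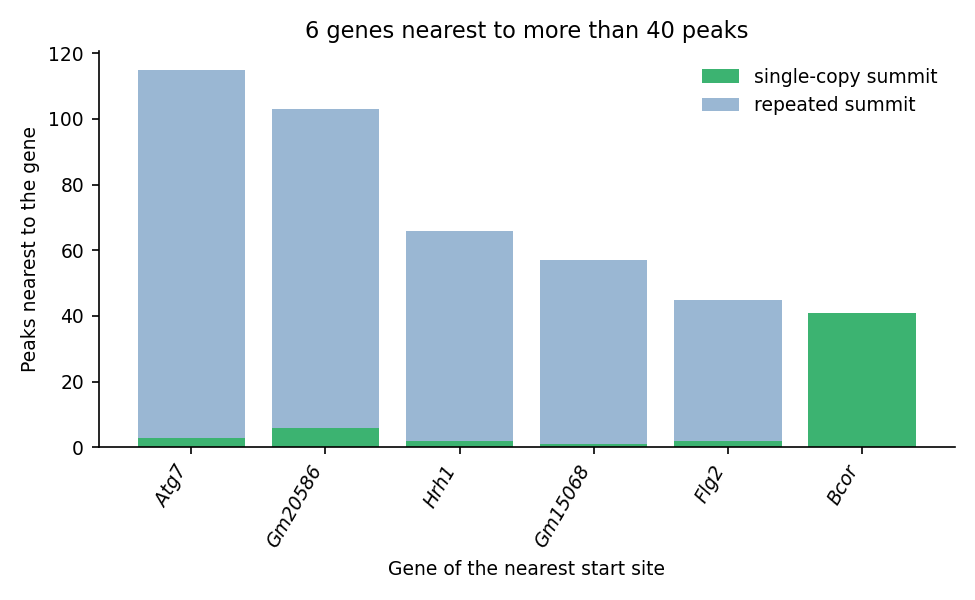
Number of peaks (vertical axis) whose nearest TSS belongs to each of the 6 genes with more than 40 peaks (horizontal axis), split into single-copy (green) and repeated (blue) summits. Bcor is entirely single-copy with 41 peaks, whereas Atg7 has 3 single-copy summits among 115.

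The broadest peaks were in repeated sequence of high GC content. The broadest, 10546 bp at chr3:93282513-93293058, lay within the filaggrin gene Flg, which encodes tandem repeats of an epidermal protein, with a fold of 21.2, and the second, 8963 bp, lay in Ahnak2 on chromosome 12 with a fold of 11.99. The next were intergenic peaks near Gm38298 (8845 bp) and Gm30228 (7353 bp) and an intron peak of Rsph3b (6315 bp, fold 31.2). All 12 broadest peaks had repeated summits and 10 of them had fully soft-masked windows, Flg and Ahnak2 being the others. Among the 12 broadest peaks with single-copy summits, 10 lay within 1 kb of a TSS, nearest to Gm26917 (3366 bp, fold 3.42), Nsd1 (2826 bp, fold 12.3), Cpeb2 (2625 bp), Mesd (2349 bp), Arid1b (2315 bp), Cdk13 (2257 bp, fold 21.7), Phf13 (2220 bp), Dnmt3a (2149 bp), Gm2164 (2112 bp) and Gm26796 (2079 bp). Copies on scaffolds or in unassembled sequence were not counted, so single-copy holds for the assembled chromosomes only, also at Gm26917. The broadest single-copy peak of all was intergenic, near Gm18979, with 3418 bp and a fold of 7.93. In all 1994 peaks were 1 kb or wider, 894 of them single-copy, of which 793 lay within 1 kb of a TSS.

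Single-copy summits varied more between chromosomes than repeated ones. The chromosomes held between 29.3 (chromosome 3) and 52.1 (chromosome 11) peaks per Mb of called bases, and X held 32.1. Single-copy summits ranged from 8.42 per Mb on X to 32.9 on chromosome 11, whereas repeated summits ranged from 17.1 on chromosome 19 to 23.6 on X. X thus had the lowest density of the former and the highest of the latter. Of 341 X-linked protein-coding genes with a CpG-rich start 323 had a promoter summit (94.7%, 91.8% to 96.6%), while the autosomes lay between 97.9% and 99.4%. The median best fold at these genes was 10.8 on X and between 11.6 and 13.3 on autosomes. The highest of these medians was that of chromosome 12. The densest 1-Mb window, on chromosome 10 from 80 to 81 Mb, had 293 peaks against a median of 29.

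**Figure D5:**
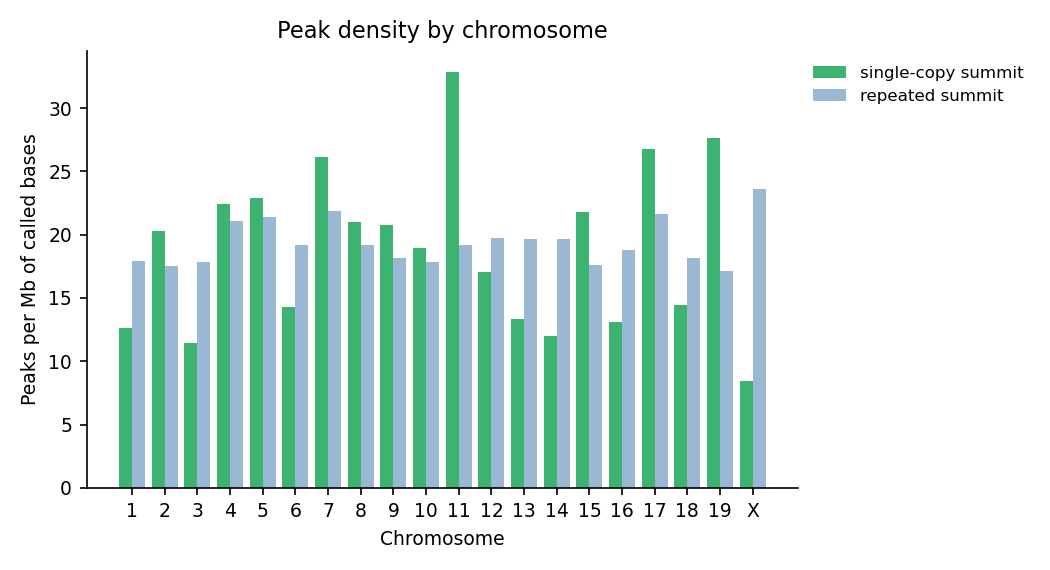
Peaks per Mb of called bases (vertical axis) on each chromosome (horizontal axis), for single-copy (green) and repeated (blue) summits. X has the lowest density of single-copy summits, 8.42 per Mb, and the highest of repeated summits, 23.6 per Mb.

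Short strings known from promoter factors were searched in either orientation within 50 bp of each summit, in flanks of the same length centred 300 bp to either side and in all tiles of that length on these chromosomes. ATGGC is contained in AAGATGGC, and the other strings were searched independently. The strings are letters only, and a match is not a binding site. GGGCGG, the core of the GC box bound by SP and KLF factors, was in 18.04% (17.8% to 18.3%) of summits, 7.09% of flanks and 1.01% of tiles, and in 44.0% of the highest decile against 7.40% of the lowest. Among single-copy summits it was in 25.7% against 11.8% of flanks. CACGTG and CAGCTG, both E-box strings, were in 3.72% and 7.61% of summits against 1.46% and 5.27% of flanks, and with single-copy summits alone 4.15% and 10.4% against 1.88% and 5.75%. Their shares of tiles were 0.969% and 3.67%.

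Other strings had different shares with and without the repeats. TGACGTCA, the CREB and ATF string, was in 2.28% of summits and 0.201% of flanks, but 80.2% of the summits with it belonged to repeat group 2, and over single-copy summits the shares were 0.474% and 0.169%. Its share of tiles was 0.0524%. CCGGAAG, the ETS string, was in 3.19% of summits and 0.921% of flanks, and over single-copy summits in 3.24% and 1.51%. In the highest decile it was in 16.2% against 0.945% of flanks and in the lowest in 1.13% against 0.738%. Group 3 held 17.8% of the summits with it over the whole list, and 0.280% of tiles had it. CACCTG is part of the word of group 3, whose peaks were 14.4% of the summits with this string, and over single-copy summits its shares were 14.1% and 9.08%, with 6.19% of tiles. ATGGC, the short core shared by REX1 and YY1, was in 15.7% of all summits and 17.8% of flanks. Over single-copy summits it was in 18.5% (18.1% to 18.8%) and 15.9%, so its direction turned over single-copy summits, and its share in genome tiles was 16.8%. The longer YY1 string AAGATGGC likewise went from 1.70% against 2.03% to 1.03% against 0.729%, and its share of tiles was 0.877%. Among single-copy summits it was the more frequent at those within 1 kb of a TSS, with 1.22% against 0.587%. At those beyond 1 kb it was the rarer, with 0.796% against 0.899% of flanks. Within 100 bp of the summit it was in 8.77% against 3.59% over the whole list. CCAAT, ATGCAAAT and the heat shock string GAANNTTC were rarer at summits than in flanks over the whole list and over single-copy summits, with 10.7% against 13.2%, 0.0816% against 0.570% and 1.41% against 3.20% over the whole list, and their shares of tiles were 16%, 0.852% and 2.94%. The AP-1 string TGACTCA was in 0.701% of summits, 1.10% of flanks and 1.54% of tiles.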

How the data were processed

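ChIP-seq of V5-tagged RNF12 H569A,C572A in mESCs was analysed as 1 deposited narrowPeak list. The authors trimmed the reads with Trim Galore 0.6.7, aligned them with Bowtie2 2.5.0 to mm10 with the SNPs that separate 129/Sv from Cast/Ei replaced by N, merged the alleles with SAMtools 1.10 and called narrow peaks with MACS2 2.2.7.1 at default settings. The deposited values are the fold over control at the summit, a ratio, and −log10 p and −log10 q as the authors' peak caller gave them. The depth of the library is unknown, and no count per peak was used.

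From the list, summits were annotated to the nearest TSS of any transcript in GENCODE release M21, and sequence was read from GRCm38, the same build. tRNA genes came from RefSeq. Peaks were ranked by fold, ties by −log10 q and position, and divided into deciles. The genes named were the 12 strongest and 12 widest peaks, the 12 genes with most peaks, the 8 with most promoter summits, per list up to 4 members with the highest fold and up to 3 without a summit, and Rlim, Zfp42, Xist and Tsix. Names outside this rule, the repeat groups, the single-copy rankings, the CpG-rich classes of genes, the 5S and tRNA genes and chromosome 12 were chosen after their values were seen. The members and lists were chosen with earlier results of these data known. Shares carry 95% Wilson intervals. Counting steps used Python 3.11.15, numpy 2.4.6 and pandas 2.3.3 and were tested on simulated data. Alternatives varied the threshold on −log10 q, distances, windows and repeated summits. The 2 control libraries were not analysed here. 1 gene that the naming rule selects is not reported here.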

Additional observations from a re-analysis of the deposited data

Results flagged for a closer look

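The list also held peaks outside the chromosomes described. On chromosome Y there were 975 peaks, although the cells are labelled female, with a median fold of 8.32 and a highest fold of 45.5. A further 303 peaks lay on 31 unplaced scaffolds, with a median fold of 6.17 and a highest fold of 27.6. Their sequence was not examined, and a part of repeated sequence in them was not tested.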

How the results depend on the processing

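With 1 library, no replicate could be left out. No paired analysis was possible because the result comes from no test. Of 36 alternatives to the main shares and counts, 17 stayed within the counting interval or within 1.5 times the count. The promoter share of 30.8% was 31.8% at a −log10 q of at least 5, 31.5% from peak edges, 26.3% with protein-coding TSSs and 54.6% over single-copy summits. The share in the highest decile, 34.1%, fell to 20.0% when deciles were ranked by −log10 q. It was 88.3% when the deciles were drawn anew among single-copy summits alone. That in the lowest decile, 21.7%, became 26.2% and 36.7%, so that ranking by −log10 q put the highest decile below the lowest. Genes with 10 or more peaks, 964, numbered 549 at a −log10 q of at least 5, 2474 with protein-coding TSSs and 261 with single-copy summits. The soft-masked share of 51.7% was 54.7% at a −log10 q of at least 5 and 60.9% for any masked base within 50 bp. The CpG-rich share of 29.8% was 33.4% at a −log10 q of at least 5, 42.6% and 21.6% within 100 and 500 bp of the summit, and 44.9% over single-copy summits. The ratio of the densest to the sparsest chromosome, 1.78, was 1.69 at a −log10 q of at least 5 and 3.90 for single-copy summits. Of 12 strings, 6 were more frequent at summits than in flanks, and 8 within 100 bp, without soft-masked bases or over single-copy summits. Of 99 alternatives for single gene lists and strings, 56 stayed within the interval. The unknown depth, the unstated control and reads of repeated sequence limit every fold given. The single-copy alternatives, other than those for the promoter share, its deciles and the promoter count, were added after seeing the data.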

Other observations

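Promoter peaks of the proximal part of chromosome 12 were stronger than those elsewhere, a pattern noticed after the values were seen. Single-copy peaks at protein-coding TSSs were compared. Of the 100 strongest of them, 18 lay on chromosome 12, which holds 3.45% of all such peaks, and 17 of these lay within the first 75 Mb, among them Odc1 and E2f6. The 357 such peaks up to 75 Mb had a median fold of 11.6 and a 90th percentile of 22.9, and the 420 beyond had 7.66 and 14.7, while other autosomes had 8.40 and 16.04 over 21095 peaks. The GC content around the summits was 63.3%, 63.2% and 63.5%, respectively. Of the 10 windows of 5 Mb with the highest 90th percentile, among 415 with at least 15 such peaks, 8 were on chromosome 12, which had 20 of the windows. The cause was not tested.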
